A study of Rattus norvegicus with 12 samples.

Results

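The data described here concern 10 genes of the Hippo pathway and its YAP and TAZ coactivators, namely Ctgf, Cyr61, Ankrd1, Amotl2, Lats2, Yap1, Wwtr1, Tead1, Axl and Ajuba. They were listed by name as genes of this pathway, and all 10 were found among the 34912 gene names on the arrays, with 13 probes between them. A gene was tested if a probe of it carried the scanner software's mark for a signal well above background on 4 or more of 12 arrays, which 9 of the 10 genes and 22718 gene names in all met. Ankrd1 did not.

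RNA from the calvaria (skull roof) of rats was hybridised to 12 Agilent arrays of 1 colour. The 3 groups of 4 samples were laser bone, in which a rectangular defect of 8 by 3 mm was cut with an Er:YAG laser (20 Hz, 127 mJ output per pulse), bur bone, in which a defect of that size was drilled, and control bone. Every sample was labelled as taken at 72 hours from rats 10 weeks old. The treatment protocol says that the periosteum was taken off controls and the bone left intact, whereas the series text calls the controls non-treated, so whether control animals had surgery is open. Strain, sex and the number of animals are not in the labels, and no label says that each sample had its own animal, so p-values take in just the spread among the samples at hand, which may be technical. All 4 controls lay on 1 slide and all laser and bur arrays on the other, so a difference from control and a difference between slides cannot be told apart. On the shared slide the first digit of the array's position code was 1 for all bur and 2 for all laser arrays. Array position and group thus cannot be told apart either. The last digit of the code was the replicate number in every group. The share of probes well above background was 58.1% to 67.0% per array. The correlation between arrays of 1 group was 0.975 to 0.984 in laser, 0.979 to 0.983 in bur and 0.948 to 0.980 in control.

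In the Hippo pathway a chain of kinases ends in LATS1 and LATS2, which phosphorylate the coactivators YAP (gene Yap1) and TAZ (gene Wwtr1) and keep them out of the nucleus. When the kinases are less active, for example on stiff matrix or after loss of cell contacts, YAP and TAZ enter the nucleus, bind TEAD factors on DNA and switch on genes such as Ctgf and Cyr61. In bone, YAP and TAZ act in cells of the osteoblast lineage and in the response to mechanical load. Because the coactivators are controlled largely by phosphorylation and location, the level of their mRNA does not give their activity.

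TEAD factors recognise the letters GGAATG, which on the opposite strand read CATTCC. Of the 10 genes, 7 were in the table of promoters used here (RefSeq, assembly GRCr8, 250 bases before to 50 bases after each gene's start), and 5 of these 7 held the motif on either strand, against 14.2% of 33469 promoters of that length. Ctgf held 3 copies, which begin 166, 101 and 92 bases before the start, while Cyr61, Amotl2, Yap1 and Ajuba held 1 each and Wwtr1 and Axl none. The motif TGANTCA of AP-1 factors was in 0 of the 7 and in 7.33% of all promoters. A match is a description of these letters and not a measured binding site. The 250 bases before the start are shown for the 3 targets of YAP and TAZ with a match and for Ajuba, 5′ to 3′ on the strand of the gene, with the motif in capitals. They lie at chr1:22624615-22624864 (minus strand) for Ctgf, chr2:237225690-237225939 (minus strand) for Cyr61, chr8:112182376-112182625 (plus strand) for Amotl2 and chr15:32000043-32000292 (minus strand) for Ajuba.
Ctgf: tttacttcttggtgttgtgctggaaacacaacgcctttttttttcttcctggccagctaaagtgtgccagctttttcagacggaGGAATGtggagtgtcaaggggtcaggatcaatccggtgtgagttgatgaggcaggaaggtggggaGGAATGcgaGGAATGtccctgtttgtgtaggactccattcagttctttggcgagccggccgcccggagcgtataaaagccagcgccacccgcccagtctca
Cyr61: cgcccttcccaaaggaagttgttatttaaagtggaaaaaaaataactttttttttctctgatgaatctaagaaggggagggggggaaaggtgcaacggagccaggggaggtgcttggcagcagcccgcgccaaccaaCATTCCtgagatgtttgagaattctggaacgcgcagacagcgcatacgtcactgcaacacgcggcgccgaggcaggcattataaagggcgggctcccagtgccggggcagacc
Amotl2: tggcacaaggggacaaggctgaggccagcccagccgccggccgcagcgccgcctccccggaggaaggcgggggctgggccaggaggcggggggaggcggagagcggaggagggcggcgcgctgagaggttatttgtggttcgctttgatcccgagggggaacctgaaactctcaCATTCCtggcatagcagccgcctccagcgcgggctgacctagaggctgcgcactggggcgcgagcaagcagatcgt
Ajuba: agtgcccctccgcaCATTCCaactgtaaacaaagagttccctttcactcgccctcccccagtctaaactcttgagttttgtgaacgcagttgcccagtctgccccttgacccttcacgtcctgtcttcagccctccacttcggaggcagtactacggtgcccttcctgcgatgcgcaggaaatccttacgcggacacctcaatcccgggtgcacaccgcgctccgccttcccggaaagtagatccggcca

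Across the 9 tested genes, Wwtr1 and Ajuba were higher in laser than in control bone, and in bur bone Wwtr1 was higher and Yap1, by the brighter of its 2 probes, lower than in control. The targets Ctgf, Cyr61 and Amotl2 had positive differences from control in both treated groups, none of which passed the test. No tested gene passed the test between laser and bur bone. In laser against control, 2 of 9 genes were called higher and 0 lower by limma, where 9.26% and 13% of all genes tested were called in those directions. At an unadjusted p under 0.05, 2 of the 9 were higher and 1, Yap1, lower. Of all genes, 8841 of 22718 passed that in either direction. In bur against control 1 of 9 was called higher and 1 lower, against 9.99% and 16.2% of all genes. At an unadjusted p under 0.05, 5 of the 9 were higher and 1 lower, where 9317 of 22718 genes passed in either direction. The sign was positive for 7 of the 9 genes in each comparison with control, and the 2 negative ones were Yap1 and Axl. The median difference of the 9 was 0.49 in laser minus control and 0.54 in bur minus control on the log2 scale, where the median of all tested genes was 0.02 and -9.7e-05. The 2 comparisons share their 4 control samples. As these are bulk samples, fewer cells of a type and less RNA per cell cannot be told apart.

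**Figure D1:**
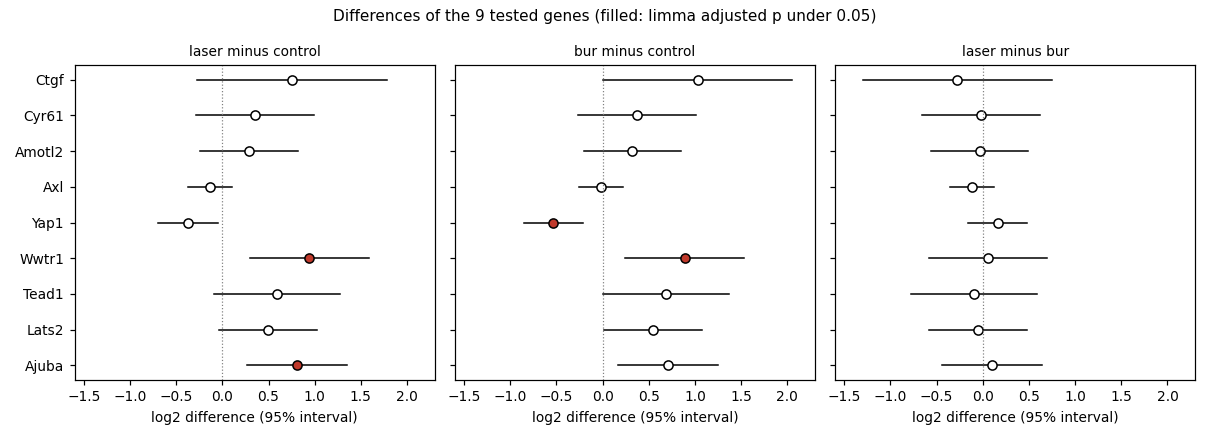
Difference of each of the 9 tested genes on the log2 scale with its 95% interval, for laser minus control, bur minus control and laser minus bur; filled points passed an adjusted p of 0.05. Wwtr1 and Ajuba are filled in laser minus control, Wwtr1 and Yap1 in bur minus control, and none in laser minus bur.

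Of the targets, Ctgf (now Ccn2) encodes a matricellular protein that binds integrins and growth factors and is the usual reporter gene of YAP and TAZ. Its probe lies at chr1:21327574-21327633 (minus strand; all probe positions are in build rn4). Values are log2 ratios of the processed signal to the 75th percentile of its array, so 0 is a signal equal to that percentile. Ctgf read 0.59, 0.09, 0.62 and -0.03 in laser replicates 1 to 4, 0.52, 0.30, 1.09 and 0.46 in bur replicates 1 to 4, and 0.07, -1.15, 0.97 and -1.64 in control replicates 1 to 4. Controls 2 and 4 lay below every treated array, while control 3 was above all 4 laser arrays and below only bur 3, so the groups overlapped. The means were 0.32 ± 0.33 in laser, 0.59 ± 0.34 in bur and -0.44 ± 1.18 in control (SD, n = 4 each). The difference was 0.75 (SE 0.47, adjusted p = 0.254) for laser minus control and 1.03 (SE 0.47, adjusted p = 0.120) for bur minus control, neither of which passed. Without control 3 both were called, at 1.22 (adjusted p = 0.0260) in laser and 1.497 (adjusted p = 0.0105) in bur, and without control 4 they were 0.35 and 0.63. In the authors' deposited table the change of Ctgf was 0.73 (adjusted p = 0.086) in laser and 0.99 (adjusted p = 0.029) in bur.

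Cyr61 (now Ccn1), a related matricellular protein, is at chr2:243824364-243824423 (minus strand). It read 0.64, 0.27, 0.45 and 0.27 in laser bone, 0.49, 0.05, 0.70 and 0.46 in bur bone, and 0.40, -0.09, 0.76 and -0.86 in control bone, in the order of the replicate numbers. Control 3 was the highest of the 12 arrays and control 4 the lowest. Laser minus control was 0.35 (SE 0.29, adjusted p = 0.393) and bur minus control 0.37 (SE 0.29, adjusted p = 0.355), with 95% intervals of -0.29 to 0.99 and -0.27 to 1.02. No array left out brought Cyr61 past the threshold in either comparison, and without control 4 the differences were 0.049 in laser and 0.071 in bur.

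Amotl2, an angiomotin-like protein that is both a target of YAP and one of its inhibitors, is at chr8:107709772-107709831 (plus strand). It read 0.88, 0.46, 0.38 and 0.53 in laser, 0.70, 0.29, 0.74 and 0.64 in bur, and 0.42, 0.57, 0.61 and -0.52 in control. Control 4 stood 0.52 below the percentile, and the other 3 controls lay within the range of the treated arrays. The differences were 0.29 (SE 0.24, adjusted p = 0.393) in laser and 0.32 (SE 0.24, adjusted p = 0.331) in bur, and without control 4 they were 0.025 and 0.058.

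Axl, a receptor tyrosine kinase whose ligand is GAS6 and whose gene YAP is known to switch on in human cells, had 2 probes, the brighter at chr1:80964348-80964407 and the dimmer at chr1:80964817-80964876 (minus strand). The brighter probe averaged -1.18 ± 0.12 in laser, -1.06 ± 0.09 in bur and -1.05 ± 0.03 in control (SD, n = 4 each). The differences from control were -0.13 (SE 0.11, adjusted p = 0.375) in laser and -0.01 (SE 0.11, adjusted p = 0.932) in bur, with intervals of -0.37 to 0.10 and -0.25 to 0.22. The dimmer probe had positive differences of 0.45 (adjusted p = 0.241) and 0.48 (adjusted p = 0.204), and was well above background on 3 laser, 4 bur and 1 control array. Neither probe passed the test, and their signs were opposite.

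Ankrd1, a cardiac and muscle ankyrin repeat protein that is a strong YAP target in many cell types, has its probe at chr1:240316831-240316890 (minus strand). It was well above background on 2 of 4 laser arrays, 0 of 4 bur arrays and 0 of 4 control arrays, and so was not tested. Its values were -6.57, -6.98, -7.98 and -7.93 in laser, -7.35, -7.89, -8.09 and -9.31 in bur, and -8.79, -8.15, -7.31 and -7.98 in control. The 2 laser arrays above background, replicates 1 and 2, were the highest of the 12, and the other 2 lay within the range of the bur and control arrays. No difference is given for Ankrd1. The summed signal of 8 skeletal muscle markers, in multiples of the array's 75th percentile, spanned 0.51 to 1.87 in laser, 0.52 to 5.51 in bur and 0.63 to 7.78 in control, and their part in the level of Ankrd1 was not tested.

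**Figure D2:**
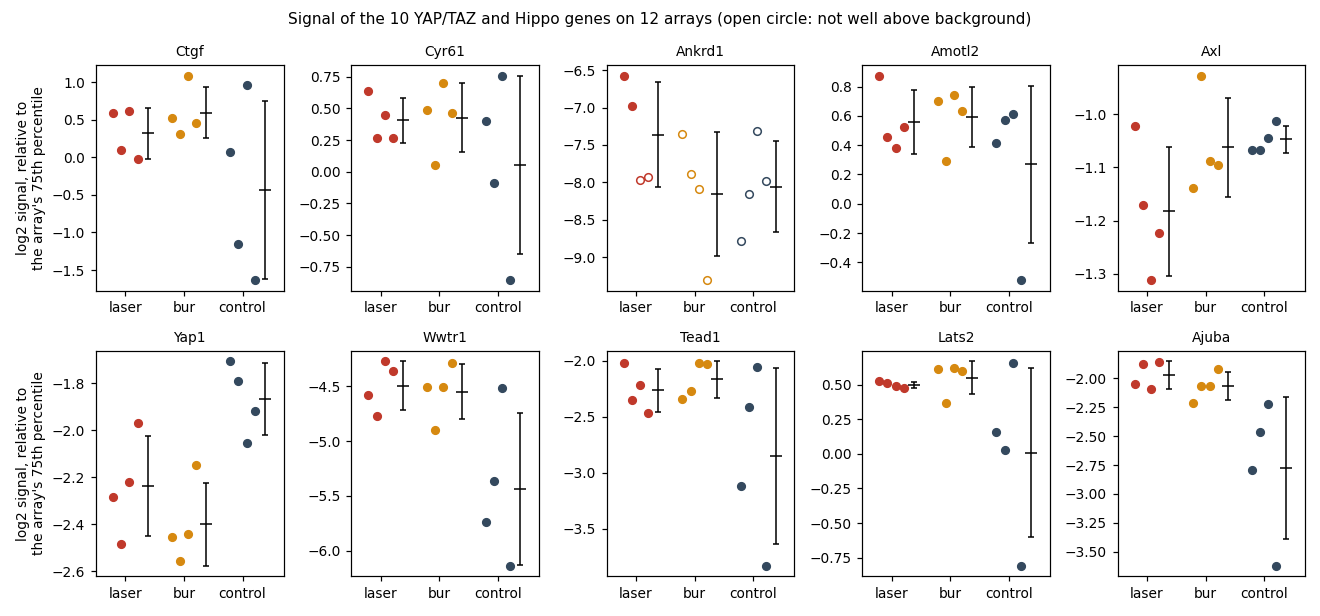
Value of each of the 10 genes on each array (log2 of the processed signal relative to the array's 75th percentile), with laser, bur and control replicates as points and the group mean and SD as a bar. Control 4 is the lowest control and control 3 the highest in 7 of the 9 tested genes, and the treated arrays lie closer together.

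Of the coactivators, Wwtr1 (TAZ) rose in both treated groups. Its probe maps to chr2:146717947-146719412 (minus strand), a span wider than its 60 bases. Wwtr1 read -4.58, -4.77, -4.27 and -4.36 in laser, -4.51, -4.90, -4.50 and -4.29 in bur, and -5.74, -5.37, -4.51 and -6.14 in control. Controls 1, 2 and 4 lay below all 8 treated arrays, and control 3 lay among them, so the groups overlapped. Laser minus control was 0.94 (SE 0.29, 95% interval 0.30 to 1.59, adjusted p = 0.041), a fold of 1.92, and bur minus control was 0.89 (SE 0.29, 0.25 to 1.53, adjusted p = 0.044), a fold of 1.85. Both calls were near the threshold. The probe was dim, with a processed signal of 11.9 to 35.7 in control and 34.0 to 50.9 in treated arrays, though well above background on every array. In laser the call was lost without any 1 of laser 1 to 4, bur 1 or 3, or control 1, 2 or 4 (0.71 to 1.03, adjusted p = 0.0537 to 0.112), and in bur without any 1 of laser 1 to 4, bur 1, 3 or 4, or control 1, 2 or 4 (0.66 to 0.91, adjusted p = 0.0529 to 0.116). Without control 3 the differences were 1.25 and 1.20. With the normexp background correction they were 0.22 (adjusted p = 0.38) and 0.05 (adjusted p = 0.82), not called, and both calls were also lost without the detection filter (adjusted p = 0.066 and 0.051) and with the 2 groups fitted alone (adjusted p = 0.086 and 0.088). The authors' deposited table gave Wwtr1 0.55 (adjusted p = 0.0137) in laser and 0.54 (adjusted p = 0.0122) in bur.

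Yap1, the other coactivator, was measured by 2 probes that gave opposite signs. Both probe sequences are shown, 5′ to 3′ as on the array, because the direction for Yap1 depends on which is read. The brighter probe is at chr8:4846155-4846214 and the dimmer at chr8:4806939-4806998, both on the minus strand, and the dimmer one lies in the part of the coding sequence for the second WW domain, which some YAP isoforms lack.
Yap1, brighter probe: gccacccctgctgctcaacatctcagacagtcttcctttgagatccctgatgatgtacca
Yap1, dimmer probe: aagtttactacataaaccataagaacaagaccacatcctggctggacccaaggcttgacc

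The brighter Yap1 probe read -2.28, -2.48, -2.22 and -1.97 in laser, -2.46, -2.56, -2.44 and -2.15 in bur, and -1.71, -1.79, -2.06 and -1.92 in control. All 4 bur arrays lay below all 4 controls, while laser 4 overlapped the controls. Bur minus control was -0.53 (SE 0.15, interval -0.85 to -0.21, adjusted p = 0.024), a called fall, and laser minus control was -0.37 (SE 0.15, interval -0.69 to -0.05, adjusted p = 0.085). The call in bur was lost without bur 1, 2 or 3 or control 1 or 2 (-0.52 to -0.48, adjusted p = 0.0541 to 0.0685). The dimmer probe read -3.65, -4.46, -3.57 and -3.80 in laser, -4.10, -4.43, -3.88 and -3.88 in bur, and -5.20, -4.27, -3.82 and -5.11 in control, with controls 1 and 4 below every other array. On it, laser minus control was 0.73 (SE 0.31, adjusted p = 0.109) and bur minus control 0.53 (SE 0.31, adjusted p = 0.225), both positive and neither called. The authors' deposited table gives Yap1 0.08 (adjusted p = 0.65) in laser and -0.05 (adjusted p = 0.78) in bur. The deposited values of that line lay 0.097 (log2, root mean square after centring) from the mean of both probes, 0.24 from the brighter and 0.41 from the dimmer.

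**Figure D3:**
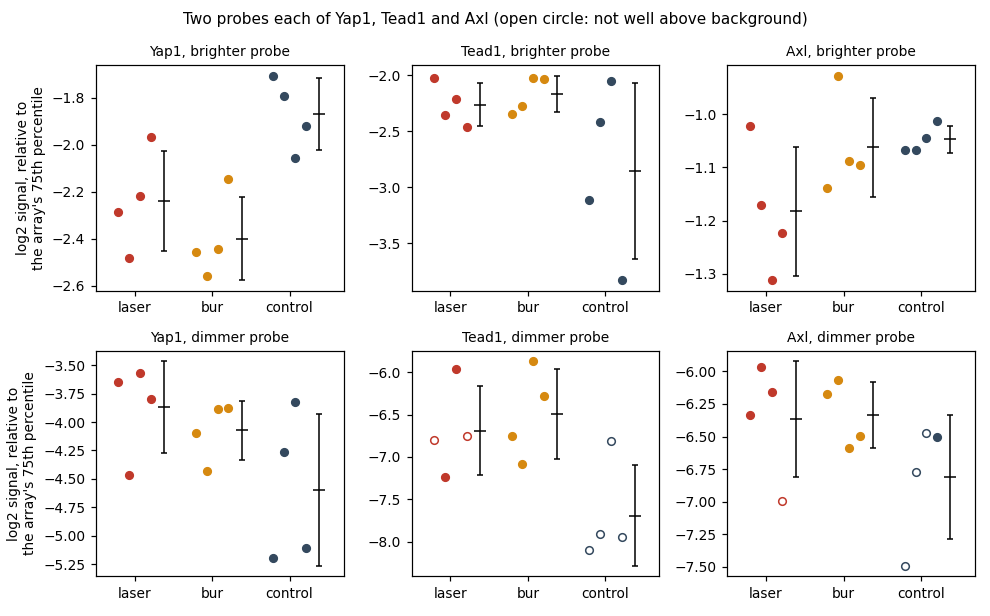
Values of the brighter and the dimmer probe of Yap1, Tead1 and Axl on each array, in log2 relative to the array's 75th percentile, by group. For Yap1 the bur arrays lie below the controls on the brighter probe and their mean lies above the control mean on the dimmer probe.

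Tead1, a DNA-binding partner of YAP and TAZ, is at chr1:170703310-170703369 (plus strand) by its brighter probe. It read -2.02, -2.35, -2.22 and -2.47 in laser, -2.34, -2.27, -2.02 and -2.03 in bur, and -3.12, -2.42, -2.05 and -3.83 in control. Controls 1 and 4 lay below every treated array and control 3 among the highest. The differences were 0.59 (SE 0.31, adjusted p = 0.184) in laser and 0.69 (SE 0.31, adjusted p = 0.120) in bur, neither called. Without control 3 both were called, at 0.86 (adjusted p = 0.0342) and 0.96 (adjusted p = 0.0214), and without control 4 they were 0.26 and 0.36. The dimmer Tead1 probe, at chr1:170690631-170690690, was well above background on 2 laser, 4 bur and 0 control arrays. It met the detection filter only through treated arrays, so no test is given for it. Its means were -6.69 ± 0.53 in laser, -6.50 ± 0.53 in bur and -7.69 ± 0.59 in control (SD, n = 4 each). Control values under their array's lowest signal well above background were raised to that signal. The bur mean then lay at least 1.52-fold above control, although control 3 at -6.81 was above bur 2 at -7.08. No bound is given for laser, where 2 of the 4 values were themselves not well above background. In the authors' deposited table Tead1 changed by 0.58 (adjusted p = 0.054) in laser and 0.68 (adjusted p = 0.029) in bur.

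Among the regulators, Ajuba, a LIM protein that binds LATS kinases and restrains them, rose in laser bone. Its probe is at chr15:32627943-32628002 (minus strand). Ajuba read -2.05, -1.88, -2.09 and -1.85 in laser, -2.21, -2.07, -2.06 and -1.91 in bur, and -2.79, -2.47, -2.22 and -3.62 in control. Every laser and every bur array was above every control, although bur 1 and control 3 differed by only 0.01. The means were -1.97 ± 0.12 in laser, -2.06 ± 0.12 in bur and -2.78 ± 0.61 in control (SD, n = 4 each). Laser minus control was 0.81 (SE 0.25, interval 0.27 to 1.35, adjusted p = 0.039), a fold of 1.75, and bur minus control 0.71 (SE 0.25, interval 0.17 to 1.25, adjusted p = 0.053), just short of the threshold. Without any 1 of laser 1 to 4, bur 1, 2 or 3, or control 1 or 4 the laser call was lost (0.52 to 0.85, adjusted p = 0.0514 to 0.0917), and without control 3 bur was called too (0.90, adjusted p = 0.0137). The laser call was also lost without the detection filter (adjusted p = 0.065) and with the 2 groups fitted alone (adjusted p = 0.090), and without control 4 the bur difference was 0.43. Groups that do not overlap, with the treated one higher, were found for 1 of the 9 genes, Ajuba, in each comparison, against 8.87% of all genes in laser and 9.6% in bur. The opposite order, with every treated array below every control, was found for 0 of the 9 in laser and for Yap1 in bur, against 10.1% and 15.7% of all genes (19% and 25.3% in either direction). The authors' deposited table gave Ajuba 0.78 (adjusted p = 0.0177) in laser and 0.79 (adjusted p = 0.0153) in bur.

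Lats2, the kinase that phosphorylates YAP and TAZ and is itself one of their targets, is at chr15:36720090-36720149 (minus strand). It read 0.52, 0.51, 0.49 and 0.47 in laser, 0.61, 0.37, 0.62 and 0.60 in bur, and 0.16, 0.03, 0.66 and -0.81 in control. The laser arrays lay within 0.05 of each other, 3 controls lay below all treated arrays and control 3 was the highest of the 12. The differences were 0.49 (SE 0.24, adjusted p = 0.156) in laser and 0.54 (SE 0.24, adjusted p = 0.115) in bur, neither called. Without control 3 both were called, at 0.71 (adjusted p = 0.0235) and 0.76 (adjusted p = 0.0167), and without control 4 they were 0.22 and 0.27.

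None of the 9 genes passed the limma test between laser and bur bone, and 0 had an unadjusted p under 0.05. The differences of laser minus bur ran from -0.28 for Ctgf (95% interval -1.30 to 0.75) to 0.16 for Yap1 (-0.16 to 0.48), each with an adjusted p of 0.9998. The intervals were narrowest for Axl (-0.36 to 0.12). All 3 groups share 1 estimate of the spread, so the width of these intervals also takes in the spread of the controls. For Lats2, for example, the SD was 0.02 in laser, 0.12 in bur and 0.61 in control. Laser and bur values overlapped for each of the 9. Of all genes, 0% were called in this comparison, 574 of 22718 had an unadjusted p under 0.05, and the groups did not overlap in 2.15%.

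The control arrays were spread more widely in these genes than the treated arrays. In 7 of the 9 (Ctgf, Cyr61, Amotl2, Lats2, Wwtr1, Tead1 and Ajuba) the SD in control was larger than in laser and in bur, as it was for 53.3% of all genes. In the same 7, control 3 was the highest control and control 4 the lowest, an order that 15.3% of all genes had. Without control 3 the number of the 9 called higher was 5 in laser (Ctgf, Lats2, Wwtr1, Tead1 and Ajuba) and 5 in bur. Without control 4 it was 0 in both. Of all 22718 genes, 3861 were called higher in laser and 3794 in bur without control 3. Without control 4 these counts were 831 and 1476, where the main fit gave 2103 and 2270. The direction of the rise and fall in calls was thus shared with all genes, but its size was not. Without control 3 the share called higher was larger among the 9 than among all genes, and without control 4 it was smaller. Whether the 9 genes moved more than other sets of that size was not tested. The controls differed in other cell types' markers too. The summed signal of 7 erythroid markers was 258, 176, 74.6 and 340 times the array's 75th percentile in controls 1 to 4, and that of 6 fibroblast markers was 9.51, 11.6, 27.8 and 6.24. Control 3 had the lowest erythroid and the highest fibroblast sum of the 4, and control 4 the reverse. Myofibroblast and smooth muscle markers were also highest in control 3 and lowest in control 4. The osteoblast, osteocyte, macrophage, neutrophil, B cell, endothelial, skeletal muscle and adipocyte sums did not have these controls at opposite ends. Osteoblast sums, for example, were 427, 610, 448 and 453 in controls 1 to 4. A sum follows its brightest markers, and the mean log2 value of a list gave a different picture for some lists. By that mean, macrophage markers (-0.51 and -1.63) and endothelial markers (-0.58 and -0.86) were highest in control 3 and lowest in control 4. Neutrophil markers (0.19 and 2.04) had the reverse order. The osteoblast, osteocyte, B cell, skeletal muscle and adipocyte means did not have these controls at opposite ends.

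The same markers differed between treated and control bone. Of all genes, 9.26% were called higher and 13% lower in laser, and 9.99% and 16.2% in bur. All 7 tested erythroid genes were lower in laser and in bur, with sums of 22.1 to 72.1 in laser, 14.1 to 69.8 in bur and 74.6 to 340 in control. Of 6 fibroblast genes, 1 was higher in laser and 3 in bur, with sums of 20.9 to 29.6 in laser, 17.4 to 39.6 in bur and 6.24 to 27.8 in control. Of 6 macrophage genes, 2 were higher in laser and 4 in bur, with sums of 11.9 to 20.3, 12.3 to 23.2 and 5.55 to 11.98 in laser, bur and control. Each of these lists had all its measured markers well above background on at least 1 array of every group. Of 6 osteoblast genes, all well above background, 2 were higher in laser and 0 in bur (0 also at an unadjusted p under 0.05), and the sums overlapped (423 to 576, 370 to 546 and 427 to 610 in laser, bur and control). Osteocyte genes were higher in laser for 4 of 5 tested and in bur for 1 of 5, and Fgf23 was not well above background in any group. Lower than in control, in laser and in bur, were 3 and 2 of 7 neutrophil genes, 2 and 3 of 6 B cell genes, and 3 and 3 of 4 adipocyte genes. The part of these markers in the results on the 10 genes was not tested.

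Over all 12 arrays, the values of Cyr61 and Lats2, each centred on its mean, were the most alike of the 36 pairs of tested genes, with a root mean square difference of 0.16 on the log2 scale. Amotl2 and Lats2 followed at 0.19 and Lats2 and Ajuba at 0.20, while Ctgf and Yap1 were farthest apart at 0.95. By that measure the gene symbols nearest to Ctgf were Aebp1, Dkk3 and Fam26e at 0.32 each, where the median symbol stood at 0.82, and those nearest to Cyr61 were Clmp at 0.13, Agrn at 0.14 and Asap3 at 0.16, with a median of 0.54. These likenesses carry no test, and all points share the same 12 arrays.

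Other genes of the Hippo pathway were called in both directions, and nothing particular to the list is read from the counts. Of 28 listed, 27 were on the arrays under those names and 26 were tested. By the brightest probe of each, 4 were higher, 2 lower and 20 not called in laser, where 9.26% and 13% of all genes were called, with a median of 0.31 against 0.02 for all genes. In bur 2 were higher, 2 lower and 22 not called, where 9.99% and 16.2% of all genes were called, with a median of 0.33 against -9.7e-05. These counts include Stk3 and Taok2, whose probes gave opposite signs, and Vgll2, which met the detection filter only through treated arrays. Without these 3 genes, 3 were higher and 1 lower of 23 in laser, and 1 was higher and 1 lower in bur. Stk4, a kinase at the head of the chain, fell by 1.40 (SE 0.36, adjusted p = 0.024) in laser and by 1.64 (SE 0.36, adjusted p = 0.011) in bur. It averaged -3.55 ± 0.34 in laser, -3.79 ± 0.58 in bur and -2.15 ± 0.70 in control (SD, n = 4 each). Of the activators, Tead2, a TEAD factor, rose by 0.98 (SE 0.28, adjusted p = 0.032) in laser. Vgll2, a cofactor that binds TEAD, was well above background on 3 laser, 1 bur and 0 control arrays. Its means were -6.48 ± 0.25 in laser and -8.70 ± 0.13 in control (SD, n = 4 each). No test is given for Vgll2, and no bound, as not every laser value was well above background. Of the inhibitors, Amotl1 rose by 0.70 (SE 0.19, adjusted p = 0.026) and Nf2, the membrane protein merlin, by 0.52 (SE 0.15, adjusted p = 0.031) in laser. In bur, Limd1, a LIM protein related to Ajuba, rose by 0.54 (SE 0.13, adjusted p = 0.014).

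The probes of 2 further kinases of the chain disagreed. Stk3 was called higher in bur at 0.46 (SE 0.14, adjusted p = 0.033) by its brightest probe, while its other kept probe gave -0.47 in bur and a called -0.70 (adjusted p = 0.047) in laser. Taok2 was called lower at -0.38 in laser and -0.47 in bur by its brightest probe, while another of its 4 kept probes was called higher at 0.79 and 0.83 (adjusted p = 0.037 and 0.027). Neither gene is thus given a single direction. Leaving out 1 array kept the calls of Stk4 and Limd1 in bur in all 12 fits. The laser calls held in 7 of 12 fits for Stk4 and Nf2, 6 for Tead2 and 8 for Amotl1. They were lost for 1 or more of these genes without laser 2, 3 or 4 or control 1, 2 or 4, with adjusted p = 0.0504 to 0.0830 where lost. With normexp the laser differences were 0.33 for Tead2, 0.31 for Amotl1 and 0.31 for Nf2, not called (adjusted p = 0.254, 0.161 and 0.117), and all 3 calls were lost with the 2 groups fitted alone (adjusted p = 0.0615 to 0.0719), those of Tead2 and Nf2 also without the detection filter (adjusted p = 0.0538 and 0.0588).

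Of 16 other genes of a published signature of YAP and TAZ targets, 15 were on the arrays under those names and 14 were tested. In laser 2 were higher, 1 lower and 11 not called, where 9.26% and 13% of all genes were called, with a median of 0.49 against 0.02 for all genes. In bur 3 were higher, 2 lower and 9 not called, where 9.99% and 16.2% of all genes were called, with a median of 0.52 against -9.7e-05. Myof, the membrane repair protein myoferlin, rose by 1.04 (SE 0.19, adjusted p = 0.008) in laser and by 0.99 (SE 0.19, adjusted p = 0.006) in bur. Its level was -0.50 ± 0.19 in laser, -0.55 ± 0.27 in bur and -1.55 ± 0.30 in control (SD, n = 4 each), the treated ranges lying above the control range, and both calls held in all 12 fits that left out 1 array. By its dimmest kept probe the differences of Myof were 0.87 (adjusted p = 0.168) and 1.13 (adjusted p = 0.078), not called. Rbms3, an RNA-binding protein, rose by 1.22 (SE 0.31, adjusted p = 0.023) in laser and by 1.05 (SE 0.31, adjusted p = 0.031) in bur. Its 4 kept probes were all positive, but only the brightest was called. With the mean of these probes both calls were lost (adjusted p = 0.055 and 0.082). Gadd45a, a growth arrest and DNA damage gene, fell by 1.36 (SE 0.37, adjusted p = 0.028) in laser and by 1.20 (SE 0.37, adjusted p = 0.037) in bur. Foxf2, a forkhead factor, fell by 1.46 (SE 0.37, adjusted p = 0.017) and Nuak2, a kinase, rose by 0.56 (SE 0.17, adjusted p = 0.033) in bur. Foxf2 was dim, with means of -6.20 in laser, -7.00 in bur and -5.54 in control. Its signal was well above background on 3 laser, 3 bur and 4 control arrays. With normexp Nuak2 was -0.10 (adjusted p = 0.457), or 0.14 relative to the median of all genes, and Rbms3 in bur was 0.30 (adjusted p = 0.146), and the calls of Rbms3, Gadd45a and Nuak2 were lost with the 2 groups fitted alone (adjusted p = 0.0605 to 0.0722). In a limma refit of the authors' deposited log2 values Foxf2 was -0.39 (adjusted p = 0.113) and Nuak2 0.32 (adjusted p = 0.0766) in bur. The calls of Rbms3 held in 8 of 12 such fits in laser and 6 in bur, and those of Gadd45a in 6 and 6. They were lost without laser 2, 3 or 4 or control 1, 2 or 4 in laser (not each for both genes), and without bur 1, 3 or 4 or control 1, 2 or 4 in bur, with adjusted p = 0.0508 to 0.104 for Gadd45a and 0.0542 to 0.0871 for Rbms3. Foxf2 was lost without control 1 alone (adjusted p = 0.0506), and Nuak2 without bur 1, 2 or 3 or control 2 or 4 (adjusted p = 0.0668 to 0.0816).

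**Figure D4:**
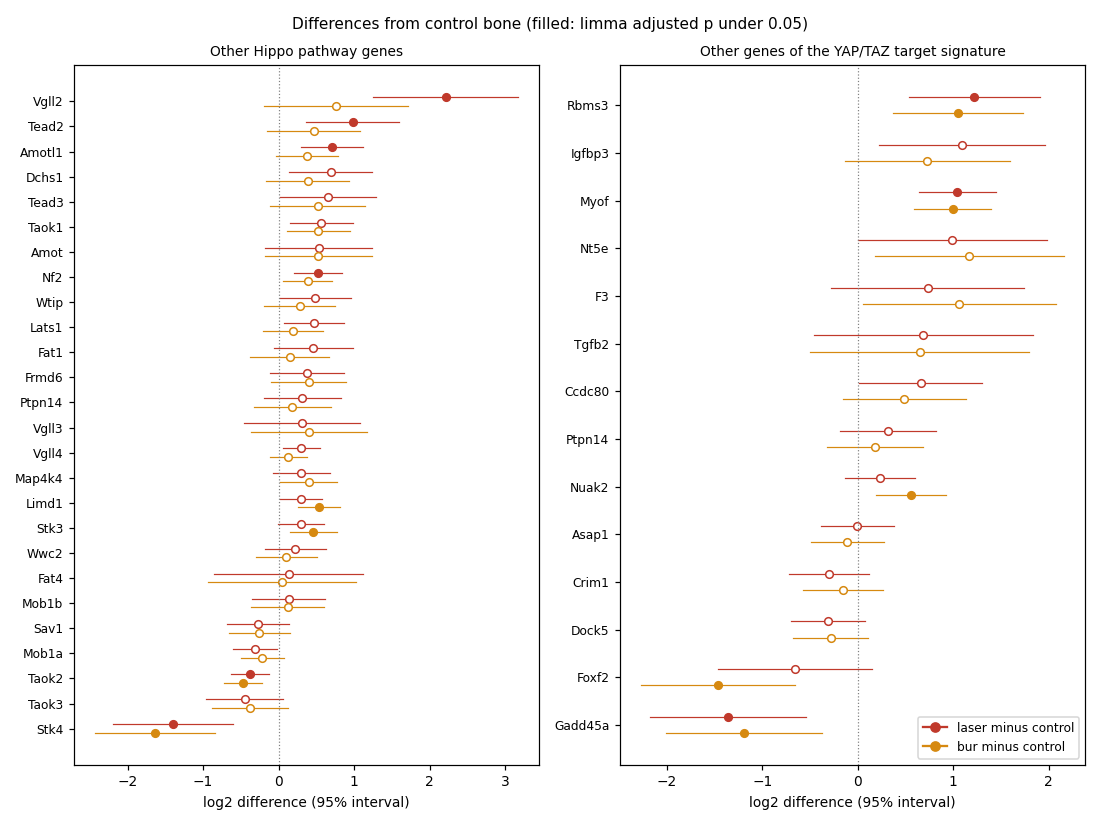
Log2 difference with its 95% interval for 26 other Hippo pathway genes and 14 other genes of the YAP and TAZ target signature, in laser minus control and bur minus control; filled points passed an adjusted p of 0.05, and the point of Vgll2 rests on control values below background. Most points lie right of 0, with Stk4, Gadd45a and Foxf2 farthest left.

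The CCN family relatives of Ctgf and Cyr61 did not pass the test. Of 4 on the arrays, Nov, Wisp1 and Wisp2 were tested and limma called 0 of 3 in either comparison with control, where 1 had an unadjusted p under 0.05 in laser and 0 in bur. Wisp1, a secreted protein of the osteoblast lineage, averaged 1.53 ± 0.22 in laser, 1.21 ± 0.36 in bur and 0.47 ± 1.13 in control (SD, n = 4 each), with differences of 1.06 (adjusted p = 0.102) and 0.74 (adjusted p = 0.229). Nov ranged from -8.23 to 0.48 in control, and its difference of -0.39 in laser had an SE of 1.57. In laser against bur, limma called 0 genes of these 3 lists, and 1 had an unadjusted p under 0.05.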

How the data were processed

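Scanner files of 12 arrays were used. Per the file headers, the deposited spot intensity comes from Agilent Feature Extraction 11.0.1.1 and was subtracted for background and detrended, but not scaled between arrays. The submitters' processing notes name the same program. The authors also deposited log2 values, named by them as quantile-normalized with other steps not given in the sources used here, and log2 changes and p-values; these served as an alternative. They hold 20522 genes, and their array medians were 7.18 to 7.32. In the comparison tables, 36 further columns of values for single samples were not used.

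Values were log2 processed intensity minus the array's 75th percentile. Spots flagged as outliers were left out and the rest averaged by probe. The brightest of a gene's kept probes stood for it. For a probe below background on every array of a group, the brighter mean was set, array by array, against the higher of the dim signal and the lowest signal well above background. Differences were tested two-sided with limma 3.58.1 in R 4.3.3 (lmFit and eBayes on all 12 arrays, a mean per group), with Benjamini-Hochberg adjustment over 22718 genes and a threshold of 0.05; single probes were adjusted over 29775 probes. The method was tested on simulated data. Genes are named as in the array design, probe positions those of build rn4, and promoters were matched through gene IDs.

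The 10 genes, the pathway lists and the marker lists were chosen with earlier results of these data known. Named genes were every member, up to 4 called genes per pathway list and comparison by size of change, and the 3 symbols nearest to Ctgf and to Cyr61; Nf2 and Nuak2 were added after their values were seen. Deviations from the group mean correlated between samples of the same number at 0.13 to 0.34 for laser with control. They did so at 0.16 to 0.34 for laser with bur and at -0.05 to 0.28 for bur with control. Numbers were taken to pair the first 2 comparisons only, although the medians, 0.20, 0.24 and 0.18 in that order, were close. Replicate numbers are also the last digit of the array's position code, so pairing of samples and array position cannot be told apart.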

Additional observations from a re-analysis of the deposited data

Results flagged for a closer look

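Values of each of the 13 probes were examined in each group of 4, which makes 39 groups, for an array whose gap to its nearest neighbour exceeds 0.829 of the group's range. Chance marks about 1 group in 20, and 2 were marked. Lats2 in bur replicate 2 was 0.3687, below the other 3 bur arrays at 0.60 to 0.62. The dimmer Tead1 probe in control replicate 3 was -6.8139, above the other 3 controls at -8.10 to -7.91, and it was not well above background on any of the 4. The same control was also the highest control on the brighter Tead1 probe.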

How the results depend on the processing

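The number of the 9 genes called higher in laser than in control bone was 2, and it was 1 (Ajuba) with the normexp background correction, 0 without the detection filter and 0 in a fit of the 2 groups alone. Array weights called 3 higher (Ctgf, Wwtr1 and Ajuba) and 1 lower (Yap1), where 0 were called lower. In bur against control, 1 gene was called higher. That count was 2 (Wwtr1 and Ajuba) with quantile normalization and with the 75th percentile of probes detected on every array. It was 2, the same genes, with a filter requiring detection on every array, and 1 (Ajuba) with normexp. The mean of a gene's probes and its dimmest kept probe (chosen after seeing the data) each gave 2 (Wwtr1 and Tead1). Those calls of Tead1 used its dimmer probe, which met the detection filter only through treated arrays, so nothing is read from them. Array weights gave 4 (Ctgf, Lats2, Wwtr1 and Ajuba). A limma refit of the authors' deposited log2 values gave 3 (Wwtr1, Tead1 and Ajuba). The authors' own adjusted p-values were under 0.05 for those 3 and for Ctgf. The count was 0 without the filter and 0 with the 2 groups alone. The gene called lower in bur, Yap1, was 0 genes with the mean of probes, 0 with the dimmest probe and 0 in the refit of the authors' deposited values. Leaving out 1 array gave 0 to 5 called higher in laser, 0 to 5 higher in bur and 0 to 1 lower in bur. In those fits 449 to 3861 of all genes were called higher in laser, 878 to 3794 higher in bur and 1911 to 4603 lower in bur. All settings gave 0 of the 9 in laser against bur. Over all genes, normexp called 1187 higher and 2438 lower in laser and 1646 and 6306 in bur, where the main counts were 2103 and 2958, and 2270 and 3678. It moved the median of all genes to -0.08 in laser, -0.24 in bur and 0.13 in laser minus bur. The 2 groups alone called 651 and 1107 in laser and 1483 and 2958 in bur, array weights 3534 and 4001, and 3631 and 4738, and no filter 1199 and 1973, and 2108 and 5750. The cause of these shifts was not tested.

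With the replicate block, by which same-numbered samples are paired, the count called higher in laser was 2 and in bur 2 (Ctgf and Wwtr1, Ctgf with an adjusted p of 0.0442), and no other call on the 9 genes changed. Numbers were taken to pair laser with control and laser with bur, not bur with control, and they cannot be told apart from array position.

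Some differences changed sign. Yap1 in laser minus control was 0.18 with the mean of probes, 0.73 with the dimmest probe and 0.079 in the authors' deposited table, and in bur minus control 0.53 with the dimmest probe. Axl in laser minus control was 0.16 with the mean of probes and 0.45 with the dimmest probe. In bur minus control Axl was 0.044 with quantile normalization, 0.053 with the other 75th percentile, 0.23 with the mean of probes, 0.48 with the dimmest probe, and -0.060 to 0.011 with 1 array left out. In laser minus bur, normexp gave 0.0046 for Cyr61 and 0.00931 for Tead1 (-0.13 and -0.12 relative to all genes), quantile normalization -0.012 for Wwtr1, and the authors' deposited values 0.061 for Lats2 and -0.0081 for Ajuba. With 1 array left out laser minus bur ran from -0.15 to 0.069 for Cyr61, from -0.14 to 0.027 for Amotl2 and from -0.061 to 0.15 for Wwtr1. Of the list genes, Taok2 was 0.13 in laser and 0.14 in bur with the mean of probes, Stk3 in bur -0.00598 with that mean and -0.47 with its dimmest probe, and Nuak2 in bur -0.10 with normexp (0.14 relative to all genes).

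Signal over background limits Ankrd1, the dimmer probes of Tead1 and Axl and, among the list genes, Vgll2 and Foxf2. The probe of Wwtr1 was well above background on every array but dim, and its calls were lost with normexp.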
